A study of Rattus norvegicus with 5 samples.

Results

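The ends of rat chromosomes were examined for acetylation of histone H4 at lysine 5 (H4K5Ac) in the dorsal striatum. An end was defined as the first or the last 5 Mb of chromosomes 1 to 9, 11 and 13 to 20 of the rn4 assembly, cut into windows of 10 kb. These 36 ends of 18 chromosomes held 17982 of the 240056 windows of those chromosomes, and the windows of chromosomes 1 to 20 and X numbered 271874. Of the end windows, 9000 lay at low coordinates (the first 5 Mb) and 8982 at high coordinates (the last 5 Mb). The remaining 222074 windows are called the interior. The rule itself names positions and chromosomes and no measured value, and chromosomes 10, 12 and X are not among them. It was set with earlier results of these data known.

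Male Sprague-Dawley rats, of an age the labels do not give, received saline or methamphetamine (METH) for 2 weeks and then a single injection of saline or 5 mg/kg METH, and the tissue was taken 2 h later. The 4 groups were saline then saline (SS), saline then METH (SM), METH then saline (MS) and METH then METH (MM). Chromatin of 4 SS, 3 SM, 3 MS and 4 MM rats was pooled and precipitated with a polyclonal antibody to acetyl-H4 lysine 5, giving 1 library per group, and 1 input library was made from unprecipitated DNA of 4 rats labelled as untreated. The dorsal striatum is a mixture of neurons and glia, so a change in the mixture of cells and a change within cells cannot be told apart. Each group was 1 library, so no value has a replicate check, and differences between groups cannot be told apart from differences between libraries or precipitations.

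Acetylation of lysine 5 loosens the grip of the H4 tail on DNA, is read by bromodomain proteins and is found at active promoters and over transcribed genes. The outermost part of a chromosome is the telomere, a simple repeat that assemblies do not hold, followed by subtelomeric DNA. In yeast and in many other organisms, telomeres can silence nearby genes, and loss of acetyl groups from H4 is part of that silencing. Rat chromosomes differ in what their ends are. In the telocentric chromosomes the centromere, which is packed in repeat-rich heterochromatin, lies at one end, whereas in the metacentric ones it lies inside and both ends are telomeric.

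On the nuclear chromosomes the SS library had 8675625 tags, SM 12621588, MS 5857372, MM 9307691 and input 17891755. A tag is 1 aligned read, and densities are given as tags per 10 kb window after scaling each library to 1000000 tags. Windows with no tag in any of the 5 libraries made up 4.97% of low-coordinate, 5.40% of high-coordinate and 5.20% of interior windows. Low counts were more frequent at the low-coordinate ends, where 7697 of 9000 windows had 20 or more input tags, against 8110 of 8982 at the high-coordinate ends and 200185 of 222074 in the interior. Intervals in parentheses are 95% exact conditional binomial intervals. They cover counting error only, take the interior as fixed, and are too narrow where PCR copies of the same molecule were counted.

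Chromosome ends as a whole held close to the same amount of H4K5Ac as the interior, with the low-coordinate ends a few percent below it and the high-coordinate ends at or slightly above it. Both kinds of end together took 6.67% (SS), 6.76% (SM), 6.67% (MS) and 6.69% (MM) of the ChIP tags and 6.78% of the input tags. Because the input itself was not even, each side was then taken separately.

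At the low-coordinate ends, mean density was 3.35 (SS), 3.33 (SM), 3.29 (MS) and 3.31 (MM), against 3.49 in input. At the high-coordinate ends it was 4.06 (SS), 4.19 (SM), 4.12 (MS) and 4.13 (MM), against 4.05 in input. In the interior the densities were 3.76 (SS), 3.74 (SM), 3.75 (MS), 3.75 (MM) and 3.77 in input. The first 5 Mb were thus sparse and the last 5 Mb dense in every library, input included.

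The input showed this unevenness without any antibody. Relative to the interior, it held 0.925 times the tags per window at low-coordinate ends and 1.07 times at high-coordinate ends. H4K5Ac was therefore expressed over input: the ratio of end to interior density in a ChIP library, divided by the same ratio in the input library. A value of 1 means as much H4K5Ac per input tag as in the interior.

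On this scale, relative H4K5Ac at low-coordinate ends was 0.966 (SS, 0.961 to 0.970), 0.962 (SM, 0.958 to 0.966), 0.951 (MS, 0.946 to 0.956) and 0.954 (MM, 0.950 to 0.958). The 4 libraries lay within a narrow range below 1, with a mean of 0.958 ± 0.00696 (SD over 4 libraries, which are 4 different groups). All 4 values are divided by the ratio of the same input library, so their closeness is not independent, and an uneven input would move them alike. At high-coordinate ends the values were 1.01 (SS, 1.00 to 1.01), 1.04 (SM, 1.04 to 1.04), 1.02 (MS, 1.02 to 1.03) and 1.03 (MM, 1.02 to 1.03). These lay above 1 in each library, with a mean of 1.02 ± 0.0143 (SD, 4 libraries). Without chromosome 7 they were 0.994 (SS), 1.03 (SM), 1.01 (MS) and 1.01 (MM), so the SS value above 1 rested on that chromosome. Of the 18 high-coordinate ends, 8 were above 1 in SS and 10 in each of SM, MS and MM.

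Since H4K5Ac over input can vary with input density, end windows were also compared with interior windows of the same input count, in 20 classes. At matched input, the low-coordinate ends held 0.967 (SS), 0.968 (SM), 0.955 (MS) and 0.959 (MM) times the tags of interior windows, with a mean of 0.962 ± 0.00606 (SD, 4 libraries). The high-coordinate ends held 0.995 (SS), 1.01 (SM), 1.00 (MS) and 1.00 (MM) times the tags, with a mean of 1.00 ± 0.00585 (SD, 4 libraries). With this matching the mean of the low-coordinate ends was close to that without it, and the last 5 Mb lay on both sides of 1. When windows were matched by the input of the surrounding 100 kb instead, the low-coordinate ends were at 0.991 (SS), 0.994 (SM), 0.981 (MS) and 0.984 (MM), with a mean of 0.987, so most of their deficit was gone. Of the 18 low-coordinate ends, matched by their own windows, 10 (SS), 6 (SM), 6 (MS) and 7 (MM) were above 1, with a median of 1.00 in SS and 0.954 in MM. Of 435 consecutive interior blocks of 5 Mb matched alike, 189 (SS), 175 (SM), 187 (MS) and 185 (MM) were above 1. Without chromosome 17 the matched sums were 0.985 (SS), 0.983 (SM), 0.972 (MS) and 0.973 (MM), so that chromosome carried much of the deficit in SS.

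**Figure D1:**
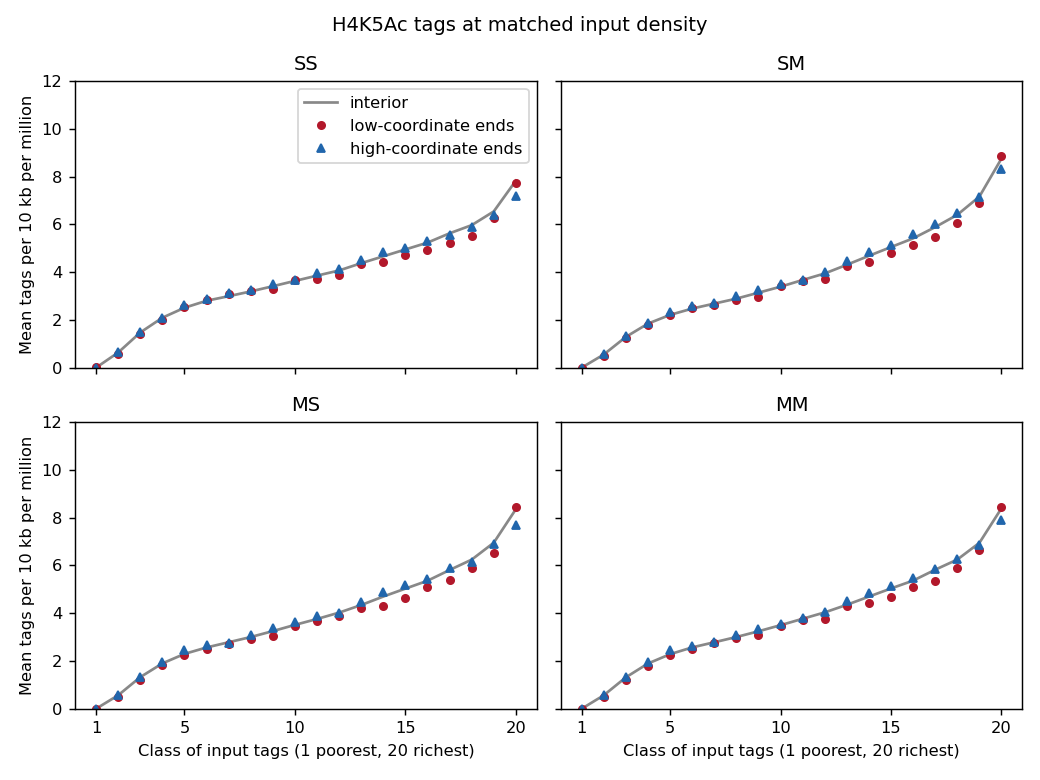
Mean H4K5Ac tags per 10 kb window, scaled to 1000000 tags per library (y axis), in 20 classes of input tag count (x axis, poorest to richest) for interior windows (grey line), low-coordinate ends (red circles) and high-coordinate ends (blue triangles), 1 panel per library. End points follow the interior line closely, with low-coordinate ends below it in 14 (SS), 16 (SM), 18 (MS) and 18 (MM) of 20 classes.

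The deficit differed between classes. For low-coordinate ends, the ratio to interior windows of the same class had a median over the 20 classes of 0.964 (SS), 0.967 (SM), 0.958 (MS) and 0.955 (MM). In the class with 1 to 19 input tags the low-coordinate ends were at 0.883 (SS), 0.888 (SM), 0.877 (MS) and 0.848 (MM), and that class held 8.83% of their windows and 4.43% of the interior ones. In the richest class, with 118 to 1157 input tags, the low-coordinate ends were at 0.987 in SS and at 1.01 in SM, MS and MM. In that class the high-coordinate ends were at 0.917 (SS), 0.950 (SM), 0.923 (MS) and 0.940 (MM). The order of the sides was thus turned around in the windows with most input, where the high-coordinate ends held 8.57% of their windows and the low-coordinate ends 4.31%.

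The deficit of the low-coordinate ends was larger in the outer 1 Mb than from 1 to 5 Mb. Over the outer 1 Mb, relative H4K5Ac was 0.923 (SS, 0.912 to 0.934), 0.865 (SM, 0.856 to 0.874), 0.870 (MS, 0.858 to 0.882) and 0.874 (MM, 0.864 to 0.884). It was below 1 on 12 of 18 chromosomes in SS and on 15 of 18 in each of SM, MS and MM. From 1 to 5 Mb the values were 0.974, 0.981, 0.967 and 0.970 in the same order of libraries, closer to 1 in each library. The deficit did not deepen steadily towards the end, since the outermost 0.1 Mb was at 0.963 (SS), 0.903 (SM), 0.904 (MS) and 0.876 (MM), and the step from 4 to 4.5 Mb was at 0.934 in SS, as was the outermost 0.5 Mb. Input density also fell towards the end, to 0.765 of the interior over the outer 1 Mb. Matched by the input of its own windows, the outer 1 Mb was at 0.935 (SS), 0.903 (SM), 0.901 (MS) and 0.906 (MM). Matching by the input of the surrounding 100 kb, which removed most of the deficit over 5 Mb, was not done for the outer 1 Mb.

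Summed over 1 Mb, the high-coordinate ends did not show this deficit. Relative H4K5Ac was 1.04 (SS, 1.03 to 1.06), 1.01 (SM, 1.00 to 1.02), 1.02 (MS, 1.01 to 1.03) and 1.01 (MM, 0.998 to 1.02), although input fell to 0.882 of the interior. At matched input the values were 1.05, 1.04, 1.04 and 1.03 for SS, SM, MS and MM. The sum covered unlike chromosomes and unlike steps. Without matching, the outer 1 Mb was below 1 on 7 (SS), 11 (SM), 9 (MS) and 11 (MM) of 18 chromosomes. The median chromosome was at 1.04, 0.957, 1.00 and 0.968. The outermost 0.1 Mb was below 1 in each library, at 0.963 (SS), 0.949 (SM), 0.947 (MS) and 0.914 (MM). The outermost 0.5 Mb was at 1.00 (SS, 0.986 to 1.02), 0.965 (SM, 0.951 to 0.978), 0.979 (MS, 0.961 to 0.997) and 0.971 (MM, 0.956 to 0.986), below 1 in the METH groups, but at matched input it was at 1.01 (SS), 1.00 (SM), 1.01 (MS) and 1.00 (MM). Without matching, the step from 0.5 to 1 Mb was at 1.08, 1.05, 1.06 and 1.04.

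**Figure D2:**
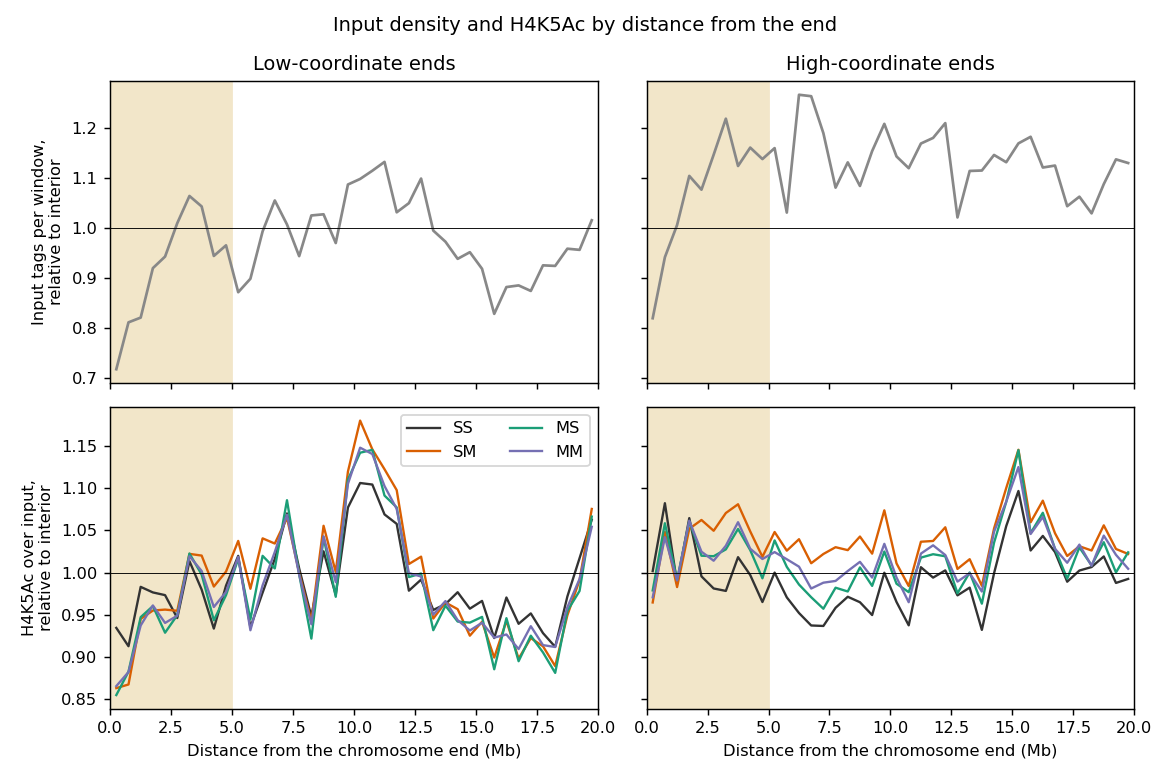
Input tags per window (upper panels) and H4K5Ac over input (lower panels, 1 line per library), both relative to the interior, in steps of 0.5 Mb by distance from the end in Mb, summed over 18 chromosomes, with the outer 5 Mb shaded. The lowest step of the low-coordinate side lies in the outer 0.5 Mb in SM, MS and MM, and in SS the step at 18 to 18.5 Mb (0.912) is as low as that at 0.5 to 1 Mb (0.913), while values beyond 5 Mb reach 1.18 in SM.

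Steps further inside swung as much as the ends did. On the low-coordinate side, the step from 10 to 10.5 Mb reached 1.11 (SS), 1.18 (SM), 1.14 (MS) and 1.15 (MM). The ends were therefore compared with interior stretches of their own size.

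Single ends spread about as widely as such stretches. Over the 36 ends, relative H4K5Ac in SS had a lowest value of 0.755, a median of 0.985 and a highest value of 1.19, and over 435 consecutive interior blocks of 5 Mb it had a lowest value of 0.802, a median of 0.984 and a highest value of 1.25. The SD over ends was 0.0836 (SS), 0.131 (SM), 0.115 (MS) and 0.114 (MM), and the SD over blocks was 0.0807, 0.131, 0.117 and 0.113. Of the 36 ends, 2 (SS), 1 (SM), 2 (MS) and 1 (MM) fell below the 5th percentile of the blocks, and 1 lay above the 95th percentile in each library. The lowest end lay below the lowest block in SS, MS (0.676 against 0.716) and MM (0.720 against 0.724), and above it in SM (0.705 against 0.694).

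In SS, 16 of 36 ends were above 1, as were 186 of the 435 interior blocks, a similar share. The interval excluded 1 on the upper side for 12 ends and on the lower side for 18. The high-coordinate end was above the low-coordinate end of its own chromosome in 10 (SS), 9 (SM), 11 (MS) and 11 (MM) of 18 chromosomes. Which side was higher thus differed from chromosome to chromosome. The ratio of high to low end was lowest for chromosome 16 in each library (0.826 in SS), and highest for chromosome 17 in SS (1.40) and for chromosome 13 in SM (1.49), MS (1.56) and MM (1.45).

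**Figure D3:**
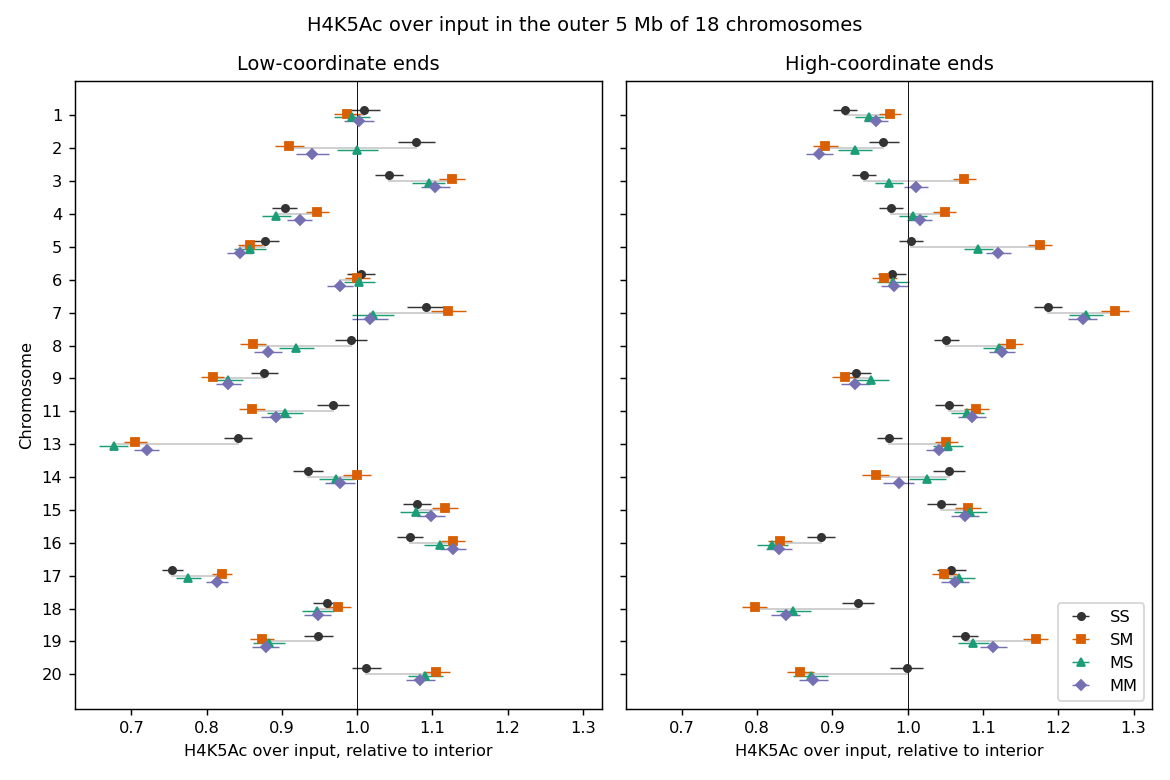
H4K5Ac over input relative to the interior (x axis) for the low-coordinate (left) and high-coordinate (right) end of each of 18 chromosomes (y axis), with 1 symbol per library and bars for the 95% counting interval. Ends of both sides lie on either side of 1, from the low end of chromosome 13 (0.676 in MS) to the high end of chromosome 7 (1.28 in SM).

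The type of chromosome was set beside these values from the standard rat karyotype. Chromosomes 2 and 4 to 9 are telocentric, so that their low-coordinate end is taken to be the centromeric one, chromosomes 1, 3, 11 and 13 are subtelocentric and chromosomes 14 to 20 are metacentric. The low-coordinate ends of the 7 telocentric chromosomes were at 0.963 (SS), 0.924 (SM), 0.925 (MS) and 0.912 (MM), with input at 0.860 of the interior. Those of the 7 metacentric chromosomes were at 0.965 (SS), 1.00 (SM), 0.980 (MS) and 0.992 (MM), with input at 1.04. The low-coordinate ends of the 4 subtelocentric chromosomes were at 0.972 (SS), 0.939 (SM), 0.934 (MS) and 0.946 (MM), with input at 0.840. In SS the low-coordinate ends of the 3 types were thus at nearly the same level. In the METH groups both the telocentric and the subtelocentric ones were lower than the metacentric ones. At matched input, telocentric low-coordinate ends were at 0.974 (SS), 0.952 (SM), 0.948 (MS) and 0.935 (MM), and metacentric ones at 0.956, 0.979, 0.961 and 0.973. Subtelocentric ones were then at 0.978, 0.968, 0.956 and 0.970. Single telocentric low ends ran from 0.877 to 1.09 in SS and single metacentric ones from 0.755 to 1.08, so the types overlapped.

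The 3 ends with the lowest relative H4K5Ac in SS were all at low coordinates. The lowest was the first 5 Mb of chromosome 17 (chr17:1-5000000), at 0.755 (SS, 0.741 to 0.769), 0.820 (SM, 0.807 to 0.833), 0.775 (MS, 0.759 to 0.792) and 0.814 (MM, 0.799 to 0.828). Its density was 3.52 (SS), 3.81 (SM), 3.61 (MS) and 3.79 (MM), against 4.68 in input, so it was poor in H4K5Ac although rich in input, which stood at 1.24 times the interior. At matched input it was at 0.745 (SS), 0.786 (SM), 0.750 (MS) and 0.787 (MM). The SS value lay below that of each of the 435 interior blocks.

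The first 5 Mb of chromosome 13 (chr13:1-5000000) came next, at 0.842 (SS, 0.823 to 0.861), and it was the lowest of all ends in the METH groups, at 0.705 (SM, 0.690 to 0.721), 0.676 (MS, 0.657 to 0.696) and 0.720 (MM, 0.703 to 0.737). Its density was 2.41 (SS), 2.01 (SM), 1.93 (MS) and 2.06 (MM), against 2.87 in input. The deficit held along its length but varied in size. In steps of 0.5 Mb, values ran from 0.793 to 0.953 (SS), 0.627 to 0.793 (SM), 0.615 to 0.748 (MS) and 0.648 to 0.800 (MM). Each of the 10 steps was below 1 in each library. The same chromosome was also the lowest of the 18 from 5 to 20 Mb in SM (0.799), MS (0.833) and MM (0.839), so the low level did not stop at the edge of the outer 5 Mb. The third was the first 5 Mb of chromosome 9 (chr9:1-5000000), at 0.877 (SS), 0.808 (SM), 0.828 (MS) and 0.828 (MM).

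The highest end in SS was the last 5 Mb of chromosome 7 (chr7:138010001-143000000), at 1.19 (SS, 1.17 to 1.21), 1.28 (SM, 1.26 to 1.29), 1.24 (MS, 1.21 to 1.26) and 1.23 (MM, 1.21 to 1.25). Its density was 5.40 (SS), 5.78 (SM), 5.62 (MS) and 5.60 (MM), against 4.57 in input. It was uneven, with steps of 0.5 Mb from 0.803 to 1.49 in SS and from 0.796 to 1.52 in MS. Unlike in the first 5 Mb of chromosome 13, steps lay on both sides of 1. The outermost step of 0.5 Mb was below 1 in each library, at 0.911 (SS), 0.941 (SM), 0.859 (MS) and 0.819 (MM). That step rested on few tags, with 17 of its 50 windows without a tag and 1220 input tags. In SS the step from 0.5 to 1 Mb was at 1.20 and that from 1 to 1.5 Mb at 0.803, so the high level had no single place of onset.

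The other ends among the 3 highest in SS were the first 5 Mb of chromosome 7 (chr7:1-5000000) and of chromosome 15 (chr15:1-5000000). The former was at 1.09 (SS), 1.12 (SM), 1.02 (MS) and 1.02 (MM), and it had the lowest input density of the 36 ends, at 0.604 of the interior. The latter was at 1.08 (SS), 1.12 (SM), 1.08 (MS) and 1.10 (MM), with input at 1.10. The low-coordinate end of chromosome 7 was uneven too. In SS its steps of 0.5 Mb from 1 to 2.5 Mb were at 1.21, 1.32 and 1.24, while the 5 steps from 2.5 to 5 Mb were at 0.612 to 0.892. The libraries parted most from 4 to 5 Mb, where the 2 steps were at 0.612 and 0.683 (SS), 0.920 and 0.938 (SM), 0.488 and 0.565 (MS) and 0.367 and 0.415 (MM), on 1190 and 1049 input tags. SM was thus higher and MM lower than SS there.

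The study compared the groups to ask how an acute METH injection, long METH exposure and the 2 together alter H4K5Ac. Relative to the interior, the ends changed little. For SM over SS, the ratio of scaled tags at the low-coordinate ends, divided by the same ratio in the interior, was 0.996 (0.991 to 1.00), and at the high-coordinate ends it was 1.03 (1.03 to 1.04). For MS over SS the values were 0.985 (0.979 to 0.991) and 1.02 (1.01 to 1.02), and for MM over SS 0.988 (0.983 to 0.993) and 1.02 (1.01 to 1.02). These 3 comparisons share the SS library, so their likeness is not independent.

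At matched input density the differences shrank further. The low-coordinate ends stood at 1.00 for SM, 0.988 for MS and 0.992 for MM over SS, and the high-coordinate ends at 1.01 for each of SM, MS and MM over SS. Without matching, the METH challenge in METH-pretreated rats, MM over MS, gave 1.00 (0.997 to 1.01) at low-coordinate and 1.00 (0.996 to 1.01) at high-coordinate ends. MM over SM gave 0.991 (0.987 to 0.996) and 0.985 (0.981 to 0.990), and 0.991 and 0.993 at matched input.

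In the outer 1 Mb the METH groups were lower than SS on both sides. Over the outer 1 Mb of low-coordinate ends, SM over SS was 0.938 (0.926 to 0.950), MS over SS 0.942 (0.928 to 0.957) and MM over SS 0.947 (0.935 to 0.960), and each was below 1 on 14 of 18 chromosomes. Over the outer 1 Mb of high-coordinate ends, the values were 0.966 (0.955 to 0.977), 0.978 (0.965 to 0.991) and 0.966 (0.954 to 0.977), again below 1 on 14 of 18 chromosomes each. At matched input these moved to 0.965, 0.963 and 0.969 on the low side and to 0.987, 0.992 and 0.980 on the high side. Ratios below 1 were not particular to the ends. On the low-coordinate side at 16.5 to 17 Mb, the step was at 0.956 for SM, 0.953 for MS and 0.968 for MM over SS, below 1 on 13, 14 and 11 of 18 chromosomes. The outermost 0.5 Mb was the lowest step of that side up to 20 Mb, at 0.924, 0.915 and 0.926. It was below 1 on 15 of 18 chromosomes in each comparison, with input at 0.719 of the interior. From 1 to 5 Mb the high-coordinate ends were above 1, at 1.05 for SM, 1.03 for MS and 1.03 for MM over SS. At matched input these values were 1.02, 1.01 and 1.01. Ratios above 1 were not particular to the ends either. On the high-coordinate side from 5 to 20 Mb, the values without matching were 1.05, 1.02 and 1.03.

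Single ends moved further than the sums. In SM over SS the lowest ends were the first 5 Mb of chromosome 13 at 0.838 (0.817 to 0.860), the first 5 Mb of chromosome 2 (chr2:1-5000000) at 0.843 (0.822 to 0.864) and the last 5 Mb of chromosome 18 (chr18:82270001-87260000) at 0.854 (0.832 to 0.875). The highest were the last 5 Mb of chromosome 5 (chr5:168100001-173090000) at 1.17 (1.15 to 1.19), the last 5 Mb of chromosome 3 (chr3:166070001-171060000) at 1.14 (1.12 to 1.16) and the first 5 Mb of chromosome 20 (chr20:1-5000000) at 1.09 (1.07 to 1.11). The range over the 36 ends, 0.838 to 1.17, lay inside that of the more numerous 435 interior blocks, 0.793 to 1.19. The SD over ends was nevertheless larger than that over blocks. For SM, MS and MM over SS it was 0.0889, 0.0622 and 0.0691 over ends and 0.0735, 0.0506 and 0.0519 over blocks. Of the 36 ends, 4, 2 and 5 fell below the 5th percentile of the blocks, and 2, 4 and 5 lay above the 95th.

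In MS over SS the first 5 Mb of chromosome 13 were again lowest, at 0.804 (0.778 to 0.830), which was below the lowest interior block at 0.819. The last 5 Mb of chromosome 20 (chr20:50270001-55260000) followed at 0.872 (0.846 to 0.898) and the last 5 Mb of chromosome 18 at 0.908 (0.881 to 0.936). The highest ends were the last 5 Mb of chromosome 5 at 1.09 (1.07 to 1.11), the last 5 Mb of chromosome 13 (chr13:106160001-111150000) at 1.08 (1.06 to 1.10) and the first 5 Mb of chromosome 20 at 1.08 (1.05 to 1.10). The first and the last 5 Mb of chromosome 13 thus stood at opposite ends of this list.

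In MM over SS the lowest ends were the first 5 Mb of chromosome 13 at 0.856 (0.832 to 0.880), the first 5 Mb of chromosome 2 at 0.872 (0.849 to 0.895) and the last 5 Mb of chromosome 20 at 0.876 (0.853 to 0.899). The highest were the last 5 Mb of chromosome 5 at 1.12 (1.10 to 1.14), the first 5 Mb of chromosome 17 at 1.08 (1.06 to 1.10) and the last 5 Mb of chromosome 3 at 1.07 (1.05 to 1.09). The tags behind the first 5 Mb of chromosome 13 were 10443 (SS), 12688 (SM), 5653 (MS), 9569 (MM) and 25687 in input.

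These changes went with how much input an end had. Over the 36 ends, the ratio to SS and the input density had a Spearman's rho of 0.839 for SM, 0.780 for MS and 0.850 for MM, and a Pearson's r of 0.818, 0.760 and 0.851. Over the 435 interior blocks rho was 0.880, 0.865 and 0.882, so the relation was not particular to ends. The points of each relation share the same 2 ChIP libraries and the input library, and the 3 relations share SS. Of the 17 ends with more input than the interior, 15 were above 1 in SM, 14 in MS and 16 in MM over SS, and of the 19 with less, 15, 15 and 16 were below 1. For MM over MS, which does not use the SS library, rho was 0.477 over ends and 0.0865 over blocks, and for MM over SM it was -0.600 and -0.699.

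**Figure D4:**
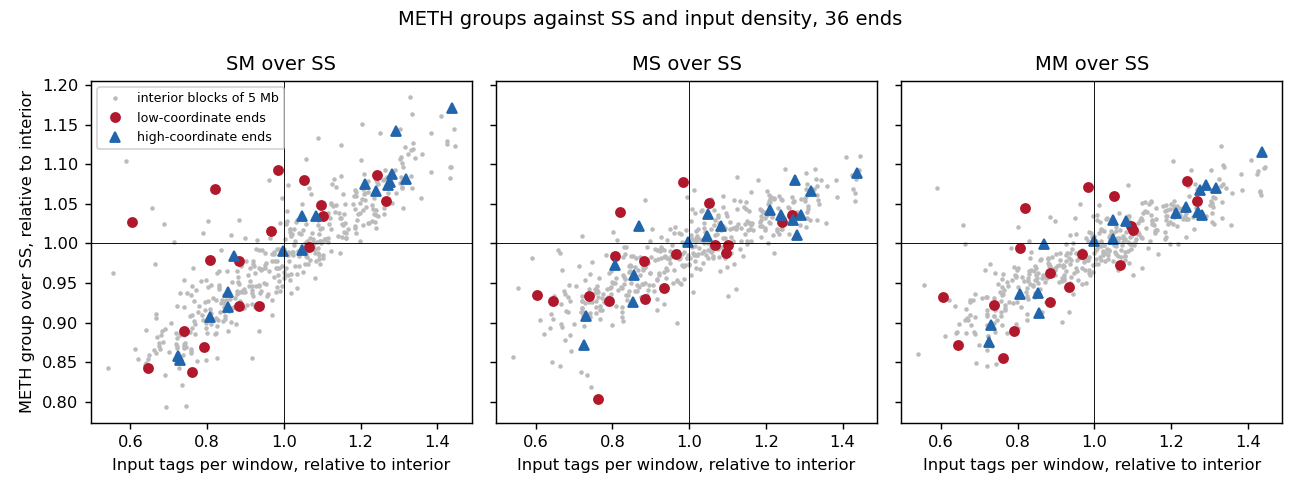
Ratio of each METH group to SS relative to the interior (y axis) against input tags per window relative to the interior (x axis), for low-coordinate ends (red circles), high-coordinate ends (blue triangles) and interior blocks of 5 Mb (grey points). Ends follow the same rising course as the interior blocks, with a Spearman's rho of 0.839 (SM), 0.780 (MS) and 0.850 (MM) over 36 ends.

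At matched input the first 5 Mb of chromosome 13 were at 0.909 in SM, 0.848 in MS and 0.904 in MM over SS, and the last 5 Mb of chromosome 5 at 1.08, 1.04 and 1.06. The directions were the same as without matching, and the ratios lay closer to 1.

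In single windows of 10 kb the ends were close to the background of all windows. Among windows with 20 or more input tags, 1320 of 15807 end windows were at or above 1.5 times the input density in SS, or 8.35%, where the background over all windows was 8.60%, and 2854 were at or below 1/1.5 of it, or 18.1%, with a background of 17.3%. In SM 1140 were higher (background 7.27%) and 2792 lower (background 18.5%), in MS 1522 higher (background 9.97%) and 3796 lower (background 23.6%), and in MM 1207 higher (background 7.95%) and 3057 lower (background 19.0%). The shares at the ends were 7.21%, 9.63% and 7.64% for higher and 17.7%, 24.0% and 19.3% for lower windows in SM, MS and MM, near the background when both sides were pooled. With the libraries scaled by windows below the median input, SM had 2376 higher (background 14.8%) and 1429 lower (background 9.25%) end windows, MS 2448 (background 15.9%) and 2663 (background 16.5%), and MM 2099 (background 13.7%) and 1922 (background 11.7%). Lower windows thus remained more numerous in MS, and in SS too, with 1641 higher (background 10.5%) and 2419 lower (background 14.6%).

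The sides differed in the same way as in the sums. Windows below input made up 20.1% (SS), 20.8% (SM), 27.7% (MS) and 23.2% (MM) of the tested low-coordinate windows and 16.1%, 14.7%, 20.5% and 15.7% of the high-coordinate ones. Windows above input were most frequent in the last 5 Mb of chromosome 7, with 88 of 422 (SS), 104 (SM), 103 (MS) and 88 (MM). In the first 5 Mb of chromosome 13 they were 11 of 456 (SS), 0 (SM), 0 (MS) and 1 (MM).

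Between groups, 1075 of 13970 end windows with 40 or more tags in both libraries together were at or above 1.5 times SS in SM, or 7.70% (background 6.85%), and 1296 at or below 1/1.5 of it, or 9.28% (background 9.20%). In MS, 909 of 11236 were higher (background 7.93%) and 1199 lower (background 10.3%), which made 8.09% and 10.7%. In MM, 970 of 13134 were higher (background 7.38%) and 1167 lower (background 8.69%), which made 7.39% and 8.89%. Pooled over the sides, these shares were near those over all windows, while the sides departed from them in opposite directions for lower windows. Windows lower than SS made up 10.9% (SM), 12.3% (MS) and 10.5% (MM) at low-coordinate ends and 7.85%, 9.30% and 7.52% at high-coordinate ends. The balance of directions turned with the scaling of the libraries: scaled by windows below the median input instead of by all tags, 2031 end windows were higher (background 13.2%) and 691 lower (background 4.82%) in SM than in SS, 1428 higher (background 12.5%) and 799 lower (background 7.11%) in MS, and 1570 higher (background 11.8%) and 742 lower (background 5.45%) in MM.

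H4K5Ac-rich spots were counted in windows of 1 kb, called at a Poisson p of at most 1e-05, with a background rate set by the input of the surrounding 10 kb or by the genome mean, whichever was larger. This p is a threshold within 1 library and compares no groups. The ends held 910 such windows in SS (background over all windows 0.514%), 1496 in SM (background 0.823%), 727 in MS (background 0.407%) and 1134 in MM (background 0.622%), or 0.506%, 0.832%, 0.404% and 0.631% of the 1 kb windows at ends. The counts followed the order of the libraries' depths, but with tags thinned at random to the depth of MS the order differed, with 491 (SS, background 0.280%), 509 (SM, 0.260%), 727 (MS, 0.407%) and 582 (MM, 0.323%), so only places within 1 library are compared.

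Summed over the chromosomes, low-coordinate ends carried fewer rich windows than the interior and high-coordinate ends more. Per Mb, the low-coordinate ends had 4.24 (SS), 6.96 (SM), 3.31 (MS) and 5.16 (MM), which was 0.825, 0.846, 0.814 and 0.829 times the interior. The high-coordinate ends had 5.88, 9.69, 4.78 and 7.46, which was 1.14, 1.18, 1.17 and 1.20 times the interior. Input differed in the same direction, at 0.925 of the interior at low-coordinate and 1.07 at high-coordinate ends. The calling threshold depends on input, and rich windows were not counted at matched input. Whether these ratios follow input was therefore not tested. After thinning, the ratio for low-coordinate ends was 0.821 in SS, 0.830 in MM and 0.978 in SM, so the deficit was small in SM at that depth. At a Poisson p of 1e-07 the ratios for low-coordinate ends were closer to 1, at 0.953 (SS), 0.909 (SM), 0.931 (MS) and 0.866 (MM), and those for high-coordinate ends were 1.24, 1.20, 1.17 and 1.16. The input library, thinned and called alike, gave 22 rich windows at the ends, or 0.0122% (background 0.0143%).

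At the main setting the last 5 Mb of chromosome 7 were the richest end in each library, with 14.03 (SS), 27.5 (SM), 12.6 (MS) and 20.6 (MM) rich windows per Mb. When the input of the 1 kb window itself was added to the background, the first 5 Mb of chromosome 20 were richest in MS, at 7.8. The last 5 Mb of chromosome 5 and the first 5 Mb of chromosome 20 followed in SS, at 12.8 and 12.6. The first 5 Mb of chromosome 13, with input at 0.762 of the interior, had 0 of 5000 in SS, MS and MM, and 2 in SM. A count of 0 allows a share of up to 0.0600% by the rule of 3, which takes windows as independent. Neighbouring windows share a background, and this bound covers no difference between rats or libraries. The last 5 Mb of chromosome 16 (chr16:85240001-90230000) had 1 (SS), 6 (SM), 4 (MS) and 4 (MM), while the first 5 Mb of that chromosome had 35, 70, 37 and 56.

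**Figure D5:**
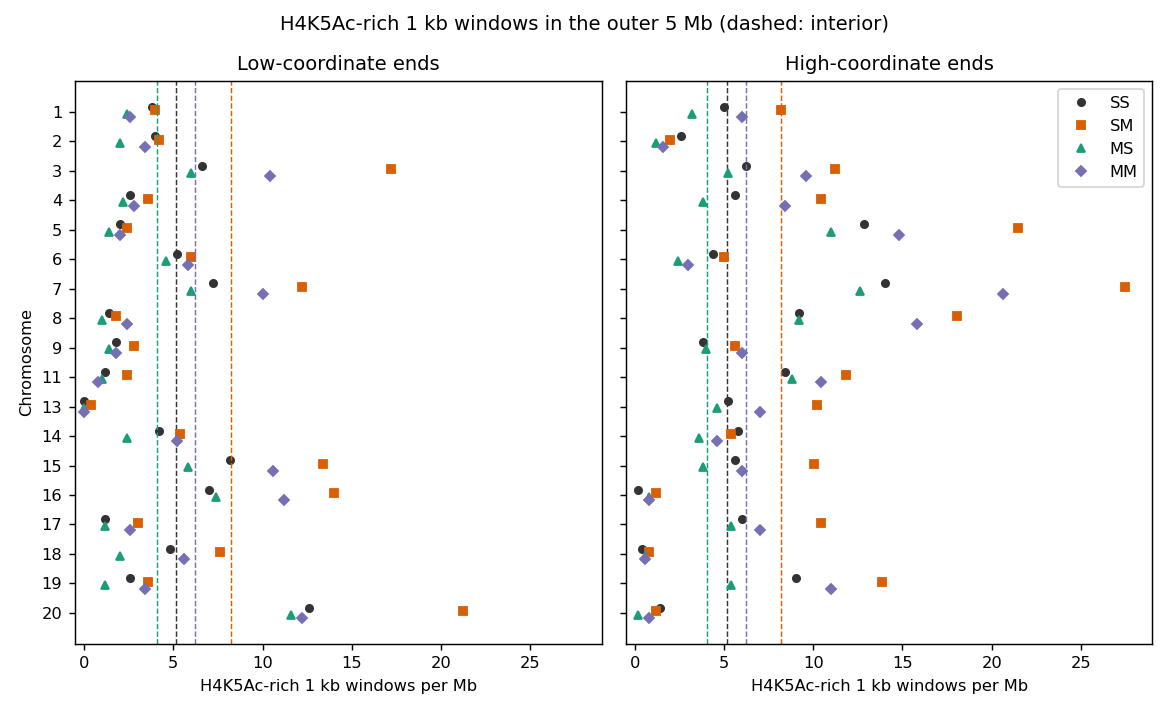
H4K5Ac-rich windows of 1 kb per Mb (x axis) at the low-coordinate (left) and high-coordinate (right) end of each of 18 chromosomes (y axis), 1 symbol per library, with dashed lines at the interior rate of each library. Ends run from 0 per Mb in the first 5 Mb of chromosome 13 (SS, MS and MM) to 27.5 per Mb in the last 5 Mb of chromosome 7 (SM).

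The 5 end windows with most SS tags above scaled input were chr7:138440001-138450000 and 4 windows of the first 5 Mb of chromosome 20. The chromosome 7 window held 192 (SS), 227 (SM), 121 (MS), 165 (MM) and 116 (input) tags, which was 3.41 times input in SS (2.70 to 4.34), 2.77 (SM, 2.21 to 3.50), 3.19 (MS, 2.45 to 4.15) and 2.73 (MM, 2.14 to 3.50). It lies 4553 kb from the end of the sequence and contained 5 (SS), 4 (SM), 3 (MS) and 4 (MM) rich windows of 1 kb. All 5 windows were chosen by SS tags above scaled input, so that SS exceeds input in them follows from the choice. Their SS values may be too high beside those of the other libraries, and the same input enters all ratios. In SM, MS and MM, whose tags did not enter the choice, the chromosome 7 window was also above input. The intervals of the 4 libraries overlapped.

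On chromosome 20, the window chr20:4220001-4230000 was at 3.05 (SS), 2.55 (SM), 3.47 (MS) and 2.84 (MM) times input. The window chr20:4860001-4870000 was at 2.42 (SS), 2.62 (SM), 2.56 (MS) and 2.72 (MM), and chr20:2820001-2830000 at 3.16 (SS), 2.66 (SM), 3.40 (MS) and 2.75 (MM). The window chr20:1590001-1600000 varied most, at 3.64 (SS, 2.73 to 4.88), 2.14 (SM, 1.59 to 2.89), 3.29 (MS, 2.39 to 4.55) and 2.65 (MM, 1.95 to 3.60). The short arm of rat chromosome 20 is known to carry the major histocompatibility complex, a dense cluster of immune genes, but no annotation of rn4 was used and windows were not assigned to genes.

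The first 5 Mb of chromosome 20 were uneven. In SS the steps from 0.5 to 1 Mb and from 1 to 1.5 Mb were at 0.704 and 0.761, and the step from 3.5 to 4 Mb at 1.20. In the METH groups the same inner step was at 1.37 in SM, 1.38 in MS and 1.32 in MM, and the step from 0.5 to 1 Mb at 0.630, 0.631 and 0.699. The course between them was not steady, since in SS the step from 1.5 to 2 Mb was at 1.06, that from 2 to 2.5 Mb at 0.860 and that from 4.5 to 5 Mb at 0.991. Rich windows numbered 0 in the step from 0.5 to 1 Mb in each of the 4 libraries, 10, 14, 4 and 9 in that from 1.5 to 2 Mb, 2, 3, 2 and 2 in that from 2 to 2.5 Mb, and 15, 28, 13 and 12 in the step from 3.5 to 4 Mb in SS, SM, MS and MM. The interior held 5.15, 8.22, 4.07 and 6.22 per Mb, and the share over all 1 kb windows was 0.514%, 0.823%, 0.407% and 0.622%.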

How the data were processed

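H4K5Ac ChIP-Seq of 1 pooled library per group and 1 input library was used. Gerald, part of the Illumina Analysis Pipeline, was run by the authors on the first 41 bases of the reads, and the build is rn4 per the submitters' processing notes. Program version, alignment filters and handling of repeated tags: not given in the sources used here. As deposited, files hold raw counts, with no normalization and no correction for input: a whole number of tags for the 1 kb window around each 100 bp step, or no entry where there was none.

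Steps starting 450 bp past each 1000 bp tile the genome without overlap and were summed to 10 kb windows. The last 5 Mb were counted back from the largest end position of a chromosome over the 5 libraries, and windows partly inside were left to the interior. Ratios, exact conditional binomial intervals and Poisson thresholds were computed in Python 3.11.15 (pandas 2.3.3, NumPy 2.4.6, SciPy 1.17.1), with plots by matplotlib 3.10.9. The calculations were tested on simulated data. No p-value between groups was computed, since each group was 1 library. Single values rest on 5857372 to 17891755 tags per library.

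Named were the 3 highest and the 3 lowest ends in SS over input and in each METH group over SS, and the 5 end windows of 10 kb with most SS tags above scaled input. Chromosome 16 and the steps of chromosome 20 were described after their values were seen. Regions and lists were chosen with earlier results of these data known. Alternatives changed the width of the ends, the interior, the matching, the fold, the Poisson p, the scaling and the depth, and left out each chromosome in turn. The zones within the ends, the relation to input density and the use of the input of the 1 kb window itself were added after the data were seen. Chromosomes 10, 12 and X were left out of the ends and of the interior.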

Additional observations from a re-analysis of the deposited data

Results flagged for a closer look

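In the first 5 Mb of chromosome 13, the METH challenge went in opposite directions in the 2 pretreatments, with both intervals excluding 1. SM over SS was 0.838 (0.817 to 0.860) and MM over MS was 1.06 (1.03 to 1.10), relative to the interior. At matched input the values were 0.909 and 1.07. All METH groups were below SS there, with MS lowest at 0.804 and MM at 0.856, and MM over SM was 1.02 (0.994 to 1.05). The difference between SM over SS and MM over MS was not tested, since each group was 1 library, and 38 ends and sums were looked at in this way. Both values lay inside the range of the 435 interior blocks, 0.793 to 1.19 for SM over SS and 0.890 to 1.09 for MM over MS. Interior blocks could part in the same way. On chromosome 1, block 11 was at 0.871 and 1.05, and block 43 at 0.909 and 1.08. How many blocks did so was not counted.

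Of the 6 ends of chromosomes outside the chosen 18, 3 had H4K5Ac over input above 1 in each of the 4 libraries, relative to their own interior and with intervals that exclude 1. The first 5 Mb of chromosome 10 were at 1.08 (SS), 1.07 (SM), 1.06 (MS) and 1.06 (MM), and its last 5 Mb at 1.12, 1.21, 1.20 and 1.18. The last 5 Mb of chromosome 12 were at 1.02 (SS), 1.05 (SM), 1.05 (MS) and 1.02 (MM). The other ends did not: the first 5 Mb of chromosome 12 were at 1.01 (SS), 0.923 (SM), 0.929 (MS) and 0.941 (MM), and on chromosome X intervals of MM at the first 5 Mb (0.982 to 1.04) and of SS at the last 5 Mb (0.974 to 1.03) included 1.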

How the results depend on the processing

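No paired analysis was possible because each group was 1 library. Of 118 alternatives to 24 results, 50 kept direction and size, 65 moved and 3 reversed; the cause was not tested. Low-coordinate ends over input (mean 0.958) stood at 0.883 for the outer 1 Mb, 0.923 for 2 Mb, 0.988 for 10 Mb, 0.951 against the interior 5 to 20 Mb from the end and 0.966 for the median window, and at 0.945 without chromosome 16 to 0.971 without chromosome 17. At matched input (0.962) they stood at 0.912, 0.945 and 0.983 for 1, 2 and 10 Mb, at 0.952 to 0.978 without single chromosomes and at 0.987 with the input of the surrounding 100 kb. High-coordinate ends over input (1.02) stood at 1.01 with each end against its own chromosome. At matched input (1.00) they stood at 1.04, 1.03 and 0.978 for 1, 2 and 10 Mb, 0.992 to 1.01 without single chromosomes, 1.02 without called 1 kb windows and 0.988 with the 100 kb input. METH groups over SS (mean of 3) at low-coordinate ends (0.990) moved to 0.941 and 0.957 for 1 and 2 Mb and reversed at 10 Mb (1.004). At high-coordinate ends (1.02) they reversed at 1 Mb (0.969) and 2 Mb (0.983), and stood at 1.04 at 10 Mb and 1.01 at matched input.

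With a fold of 2, end windows above and below input numbered 235 and 752 (SS, share of all windows 1.58% and 4.42%), 185 and 689 (SM, 1.15% and 4.35%), 318 and 1492 (MS, 2.18% and 9.07%) and 223 and 888 (MM, 1.5% and 5.20%), and those above and below SS 147 and 214 (SM, 0.887% and 1.42%), 105 and 230 (MS, 1.01% and 2.24%) and 121 and 226 (MM, 0.927% and 1.44%). Scaled by windows below the median input, end windows above and below input numbered 2376 and 1429 (SM), 2448 and 2663 (MS) and 2099 and 1922 (MM), so that higher ones were more numerous in SM and MM but not in MS. Above SS there were 2031, 1428 and 1570 and below SS 691, 799 and 742 in SM, MS and MM. Which of the directions against SS is more frequent at the ends thus depends on the scaling. H4K5Ac-rich 1 kb windows at ends numbered 2493, 3768, 2218 and 3026 in SS, SM, MS and MM at a Poisson p of 0.001 (1.45%, 2.09%, 1.24% and 1.72% of all windows) and 467, 764, 356 and 566 at 1e-07 (0.238%, 0.405%, 0.189% and 0.311%). Thinned to the depth of MS (727, 0.407%) they numbered 491 in SS, 509 in SM and 582 in MM (0.280%, 0.260% and 0.323%), and with the input of the window itself, an alternative chosen after seeing the data, 485, 837, 428 and 680 (0.275%, 0.453%, 0.237% and 0.381%). Counts of rich windows change with depth, but at equal depth MS, the shallowest library, had the most. With 1 pooled library per group differences of a few percent have no replicate error to be read against.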

Other observations

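The outermost 0.1 Mb, 180 windows on each side, was poorer in input than the rest of the ends, at 0.685 of the interior on the low-coordinate and 0.750 on the high-coordinate side. Relative H4K5Ac there was 0.963 (SS), 0.903 (SM), 0.904 (MS) and 0.876 (MM) on the low-coordinate side, and 0.963, 0.949, 0.947 and 0.914 on the high-coordinate side. At matched input it was 0.966, 0.929, 0.927 and 0.898 on the low-coordinate side, and 0.963, 0.984, 0.973 and 0.939 on the high-coordinate side. Without matching, single chromosomes ranged in SS from 0.681 (chromosome 3) to 1.54 (chromosome 8) on the low-coordinate side.

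The outer 5 Mb of chromosome X, relative to its own interior, were at 1.05 (SS), 1.03 (SM), 1.05 (MS) and 1.01 (MM) at low coordinates, and at 1.00, 1.13, 1.07 and 1.10 at high coordinates.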
